A study of Arabidopsis thaliana with 12 samples.

Results

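L29, L17 and L5 are proteins of the large subunit of the plastid ribosome, encoded in Arabidopsis by the nuclear genes AT5G65220, AT3G54210 and AT4G01310. Each was represented on the array by 1 probe paired with that gene alone, so the 3 genes were 3 of the 691 genes that had such a probe. In these same samples L29 stood far higher with proline, and L17 and L5 somewhat lower after normalization but not as deposited. The 3 genes were selected on these intensities. The comparison of proline with water is therefore given for them as a description, with no test.

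Total RNA came from wild-type Arabidopsis thaliana, ecotype Wassilevskija. For 6 samples, plants had been given 100 mM proline for 6 h, which the labels say brought cellular proline to a toxic level, and 6 control samples came from plants given water for a time the labels do not state. No transgene or mutation is named. The labels name no organ, none of the 12 green tissue and root marker genes looked for had a probe of its own, and nothing states that different plants were sampled, so spreads and p-values may be technical.

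The plastid ribosome is of the bacterial type and translates the messages of the plastid genome, among them core subunits of the photosystems. Its proteins come from both genomes: some are made in the plastid itself, and most are encoded in the nucleus and imported. In Escherichia coli, L29 and L17 lie around the opening of the tunnel through which the new protein leaves the ribosome, and L5 binds the smallest ribosomal RNA in the central protuberance, next to the small subunit. The members are thus parts of one particle that is built with a single copy of each of them.

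The table held 3439 probes with array intensities from 0 to 100. The median intensity was 0.171 to 0.188 in the water samples and 0.213 to 0.361 in the proline samples, with proline samples 3 and 4 highest at 0.361 and 0.350. Intensities were therefore quantile-normalized, which gives every sample the same distribution, and levels below are on that linear scale unless said otherwise. No value of the 3 members was at 0 or at 100 in any of the 12 samples as deposited. Samples 1 and 2, 3 and 4, and 5 and 6 of a group resembled each other more than the rest, with a median absolute log2 difference of 0.149 to 0.178 against 0.227 to 0.398. The 6 samples of a group may thus hold fewer independent measurements, and precision is limited by the number of arrays.

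L29 was the member with the large difference. Its probe stood at 2.46, 2.1, 1.90, 1.94, 2.02 and 1.97 in water samples 1 to 6. In proline samples 1 to 6 it stood at 14.6, 15.8, 14.6, 15.8, 19.5 and 10.3. Every proline sample was above every water sample, and the lowest proline value was 4.19-fold above the highest water value. Its mean rested at 2.06 ± 0.20 for water and 15.1 ± 3.0 for proline (SD, n = 6 each), a log2 difference of 2.85 ± 0.13 (SE), or 7.21-fold. In bulk RNA such a difference cannot separate more transcript per cell from more cells that hold it.

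L29 varied more among the proline samples than among the water samples. The highest water value was 1.29-fold above the lowest, whereas the highest proline value, in sample 5, was 1.89-fold above the lowest, in sample 6. On the log2 scale its SD was 0.14 in water and 0.30 in proline, against medians of 0.25 and 0.32 over all tested probes. Samples 5 and 6, which otherwise resembled each other closely over the array, were thus the farthest apart for L29 among the proline samples. Their mean on the normalized log2 scale, 3.83, lay close to those of samples 1 and 2 and of samples 3 and 4, both 3.92. That these 2 means are the same comes from the normalization, which gave samples 1 and 3 one value and samples 2 and 4 another. As deposited, samples 1 and 3 stood at 14.63 and 12.93, and samples 2 and 4 at 16.05 and 13.85.

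L17 was modestly lower with proline after normalization. Water samples 1 to 6 stood at 0.765, 0.695, 0.737, 0.659, 0.840 and 0.742. Proline samples 1 to 6 stood at 0.449, 0.435, 0.584, 0.512, 0.596 and 0.580. The groups did not overlap, but they came close: the lowest water value, in sample 4, was 1.11-fold above the highest proline value, in sample 5. The group means were 0.740 ± 0.062 for water and 0.526 ± 0.072 for proline (SD, n = 6 each), a log2 difference of -0.50 ± 0.10 (SE). Proline samples 1 and 2 were the lowest, so that the difference between means of neighbouring samples was -0.72 for samples 1 and 2, -0.35 for samples 3 and 4, and -0.43 for samples 5 and 6.

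L5 differed least. Water samples 1 to 6 stood at 0.348, 0.417, 0.409, 0.360, 0.460 and 0.468. Proline samples 1 to 6 stood at 0.258, 0.358, 0.306, 0.299, 0.360 and 0.304. The groups overlapped, since proline samples 2 and 5 were above water sample 1. The group means were 0.410 ± 0.050 for water and 0.314 ± 0.039 for proline (SD, n = 6 each), a log2 difference of -0.39 ± 0.10 (SE). The differences between means of neighbouring samples were -0.33, -0.34 and -0.49. In the TAIR10.1 annotation AT4G01310 overlaps the gene AT4G01290, and the strand and sequence of the probe are not given here, so that signal from AT4G01290 cannot be told apart, whereas AT5G65220 and AT3G54210 overlap no annotated gene.

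**Figure D1:**
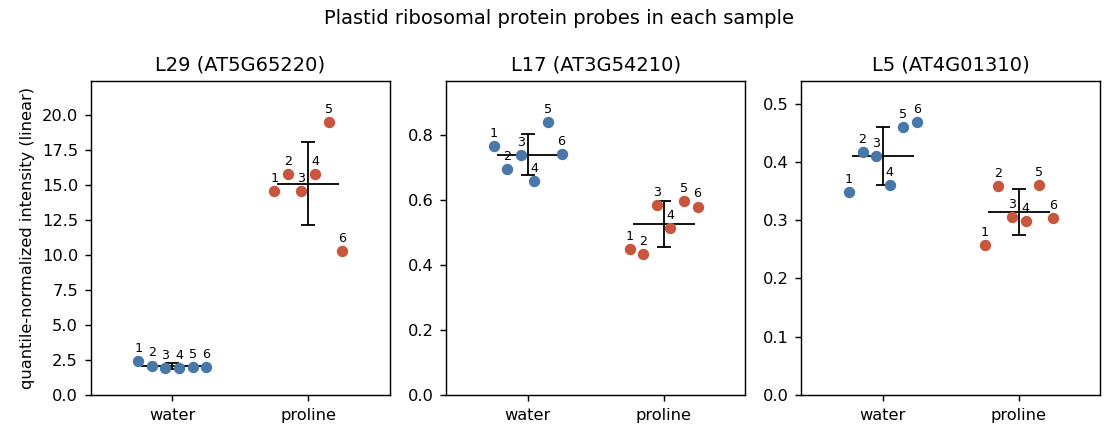
Quantile-normalized intensity (linear, from 0, each panel with its own scale) of the probes for L29, L17 and L5 in the 6 water and 6 proline samples; numbers are the replicate numbers, and bars give the mean ± SD. L29 lies between 10.3 and 19.5 in proline and between 1.90 and 2.46 in water, while the groups of L17 lie close together and those of L5 overlap.

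Of the 3 members, 2 had groups that did not overlap, L29 above and L17 below water, and this held for 23.4% of the 620 tested probes with 1 gene (12.6% higher and 10.8% lower). An adjusted p under 0.05 in limma after quantile normalization was part of what the 3 members were selected on, and is no test of them. It was reached by 38.0% of the 3097 tested probes and by 37.3% of those with 1 gene (19.0% higher and 18.2% lower). In the values as deposited the log2 differences of L17 and L5 were 0.08 ± 0.14 and 0.28 ± 0.16 (SE). Over all probes 45.0% of the calls were upward, a share that was 87.0% in the values as deposited. The members were picked for these outcomes, so nothing is read from the counts.

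Among the tested probes with 1 gene, 5 had a higher log2 difference than L29. The log2 differences of L17 and L5 lay within the bulk of the distribution: 120 of the 620 probes were lower than L17 and 153 lower than L5. The residual SD of the members on the log2 scale was 0.23 for L29, 0.17 for L17 and 0.18 for L5, against a median of 0.31 over all tested probes. The probes for L17 and L5 were thus among the less variable on the array, with 12.6% and 15.5% of tested probes having a smaller residual SD, and 29.3% for L29.

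**Figure D2:**
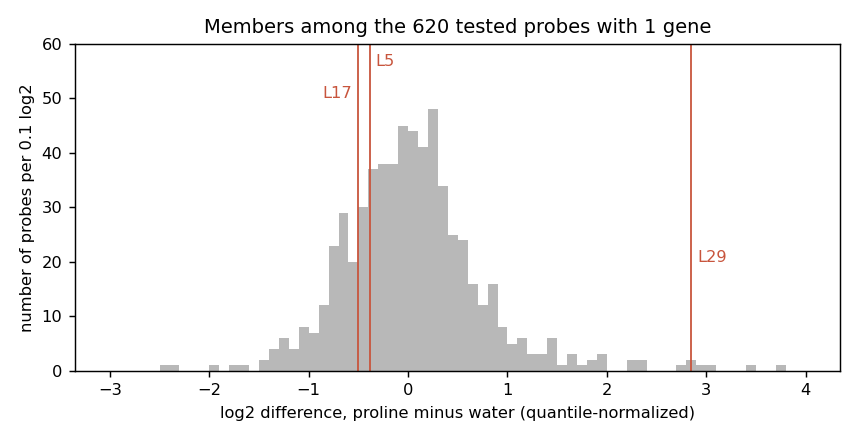
Number of tested probes with 1 gene (620 in all) by their log2 difference between proline and water after quantile normalization, in steps of 0.1; red lines mark the members. L29 at 2.85 lies in the sparse upper end, and L17 at -0.50 and L5 at -0.39 lie within the main body.

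The replicate numbers of the labels tied the groups together in part. Over the array, deviations from the group means correlated at 0.16 to 0.47 where the number was shared. The highest correlation with a different number was lower for each number, but reached 0.17. Compared number by number, L29 was higher in proline in 6 of 6 comparisons, by 5.92-fold, 7.53-fold, 7.66-fold, 8.15-fold, 9.67-fold and 5.24-fold for the numbers 1 to 6. L17 was lower in 6 of 6, with log2 differences from -0.77 in number 1 to -0.34 in number 3. The groups of L29 and of L17 did not overlap, so any matching of samples gives 6 of 6 for them. L5 was also lower in 6 of 6, from -0.63 in number 6 to -0.22 in number 2. The number with the largest difference was a different one for each member. The members were chosen for these directions, so the counts are no further support for them.

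How the arrays were scaled decided the direction of L17 and L5, but not that of L29. Without normalization the log2 difference of the median tested probe was 0.41, and quantile normalization brought it to -0.03. As deposited, L17 stood at 0.612, 0.567, 0.567, 0.505, 0.708 and 0.638 in water samples 1 to 6. It stood at 0.505, 0.490, 0.816, 0.734, 0.652 and 0.637 in proline samples 1 to 6. Only proline samples 3 and 4, the ones with the highest median intensity, exceeded all water values, and number by number L17 was higher with proline in 2 comparisons and lower in 4. The log2 difference was 0.08 ± 0.14 (SE), which lies at -0.33 from the all-probe median, and without proline samples 3 and 4 it was -0.07.

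For L5 the deposited values were 0.261, 0.315, 0.299, 0.265, 0.374 and 0.388 in water samples 1 to 6. They were 0.287, 0.409, 0.474, 0.460, 0.375 and 0.312 in proline samples 1 to 6. Here proline samples 2, 3 and 4 were above all water samples, and L5 was higher with proline in 5 of the 6 comparisons by number. The log2 difference was 0.28 ± 0.16 (SE), or 0.13 without proline samples 3 and 4. Set against the all-probe median it was -0.13, less than its SE.

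Median centring, which divides each sample by its median, gave log2 differences of -0.50 ± 0.12 for L17 and -0.30 ± 0.12 for L5, and cyclic loess, which aligns samples along the range of intensity, gave -0.43 ± 0.11 and -0.35 ± 0.11 (SE). Under median centring the groups of L17 overlapped as well, with 2 proline samples inside the range of water. The position of L17 and L5 among the 620 probes with 1 gene also moved. After quantile normalization 19.4% of them had a lower difference than L17 and 24.7% a lower one than L5, and as deposited these shares were 28.5% and 41.1%.

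L29 stayed apart from water under each of the 4 scalings. Its log2 difference was 2.94 ± 0.15 as deposited, 2.97 ± 0.14 with cyclic loess and 2.36 ± 0.24 with median centring (SE), which is 7.66-fold, 7.84-fold and 5.15-fold. As deposited its lowest proline value was 11.5, in sample 6, and its highest water value 2.42, in sample 1. Between 4 and 6 of the 620 probes with 1 gene had a higher difference than L29, depending on the scaling.

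**Figure D3:**
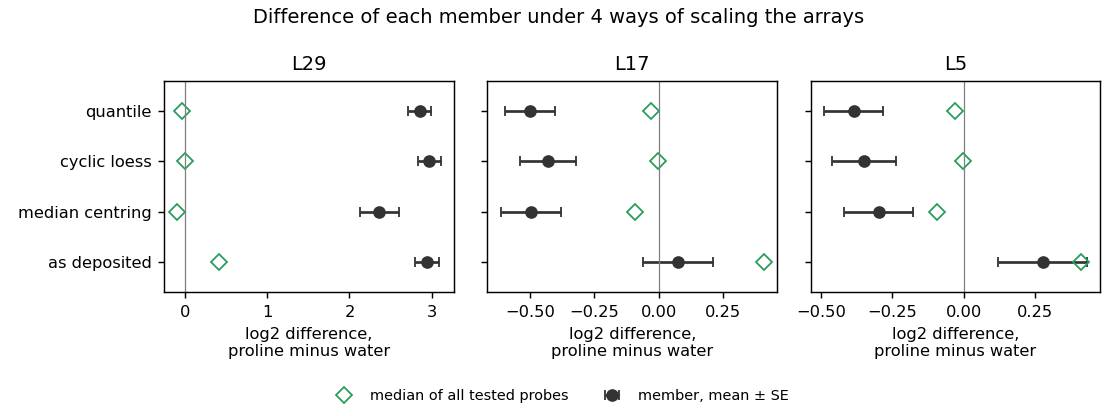
Log2 difference between proline and water of L29, L17 and L5 (filled circles, mean ± SE, n = 6 per group) under 4 scalings, with the median of all tested probes under the same scaling (open diamonds); each panel has its own horizontal scale. L29 stays between 2.36 and 2.97, while L17 and L5 are below 0 under 3 scalings and at 0.08 and 0.28 in the values as deposited, where the median of all probes is 0.41.

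A ratio between members within a sample does not depend on a factor that multiplies a whole sample, so it was taken from the deposited values. Only its change between groups can be read, since different probes have different brightness. The log2 ratio of L29 to L17 was higher with proline by 2.86 ± 0.21 (SE), and relative to its water mean it was between 2.29, in proline sample 3, and 3.35, in proline sample 5. The log2 ratio of L29 to L5 was higher by 2.66 ± 0.22, with proline samples between 2.15 and 3.23. Water samples lay between -0.24 and 0.29 for the first ratio and between -0.36 and 0.59 for the second, so that neither overlapped with proline. These directions follow from the choice of the members.

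The ratio of L17 to L5 changed little, which in part follows from the choice of both as somewhat lower with proline. Its log2 value moved by -0.20 ± 0.13 (SE) with proline as deposited and by -0.11 ± 0.12 after quantile normalization. As deposited the proline samples lay between -0.67, in sample 2, and 0.10, in sample 6, relative to the water mean, and the water samples between -0.21 and 0.30. The groups overlapped, and a change of this ratio was not separable from the spread between samples. Proline sample 2, which held the lowest normalized L17 and the second highest L5 of its group, contributed the largest departure.

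**Figure D4:**
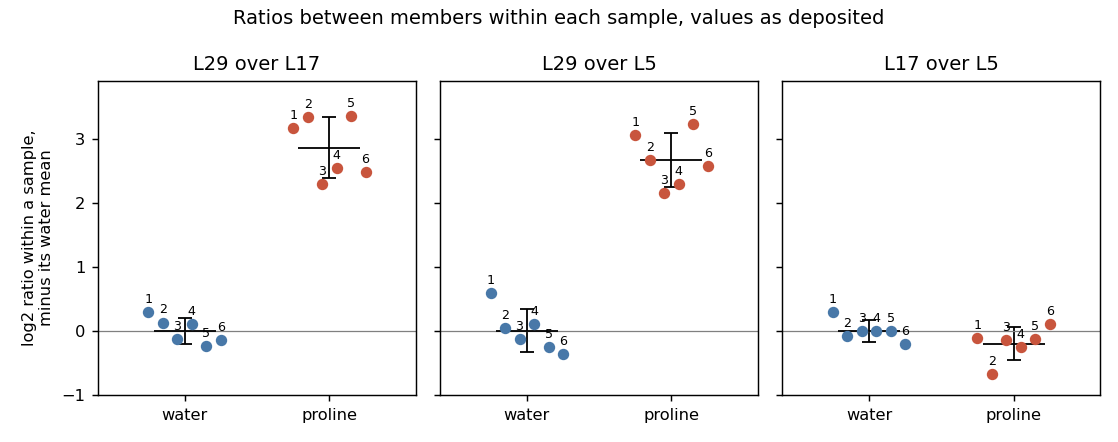
Log2 ratio between pairs of members within each sample, from the values as deposited, minus the mean of the water samples; numbers are replicate numbers and bars the mean ± SD (n = 6 per group). The ratios of L29 to L17 and to L5 are 2.15 to 3.35 above the water mean in every proline sample, and the ratio of L17 to L5 overlaps between the groups.

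Within a group the members did not share one order of samples. In proline, sample 5 was the highest for all 3 members, at 0.40, 0.19 and 0.21 above the group mean on the log2 scale for L29, L17 and L5. Proline sample 6, lowest for L29 at -0.53, was at 0.15 for L17 and -0.04 for L5. In water, sample 1 was highest for L29 at 0.26, while it was lowest for L5 at -0.23 and at 0.05 for L17. The largest deviations of L17 and L5 were -0.26, in proline sample 2, and -0.28, in proline sample 1, against differences between the groups of -0.50 and -0.39.

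The profiles most like those of the members were sought among the other 619 tested probes with 1 gene, by the root-mean-square distance of log2 values over the 12 samples after subtracting the mean of each gene. For L29 the nearest were AT1G76450 and AT3G06200, both at a distance of 0.32, and AT1G12800 at 0.34, where the median probe was at 1.49. AT1G76450 stood at 0.566 ± 0.121 with water and 3.88 ± 0.72 with proline, AT3G06200 at 1.05 ± 0.08 and 5.48 ± 0.22, and AT1G12800 at 0.720 ± 0.124 and 5.82 ± 1.17 (SD, n = 6 each). Their log2 differences were 2.79, 2.38 and 3.01, against 2.85 for L29. The distance of such probes is set mostly by the difference between the groups, for which L29 was chosen. L17 and L5 ranked 468 and 433 in distance from L29, at 1.70 and 1.64.

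For L17 the nearest profile was that of AT4G29890 at 0.16, followed by AT2G39360 and AT2G46220, both at 0.18. L5 came at rank 6 with 0.20. For L5 the nearest was AT2G44530 at 0.15, then AT4G29890 and AT5G11010, both at 0.16, and L17 came at rank 12 with 0.20. AT4G29890, which is near both, stood at 6.29 ± 0.20 with water and 5.05 ± 0.34 with proline (SD, n = 6 each). The log2 differences of these nearest probes were between -0.32 and -0.16, smaller than those of L17 and L5. The median probe was at a distance of 0.50 from L17 and 0.47 from L5. L17 and L5 were both chosen as somewhat lower with proline, and the distance includes that difference. Their ranks are thus no evidence that they vary together.

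Of 67 listed genes of plastid ribosomal proteins, 64 besides the members, 3 further ones had a probe of their own: L34 (AT1G29070) of the large subunit, and S10 (AT3G13120) and S6 (AT1G64510) of the small subunit. L34 was at 0 as deposited in all 6 water and 5 proline samples and at 0.00872 in proline sample 4, so it was not tested. S10 and S6 were tested, and neither passed (limma adjusted p = 0.412 and 0.265, and 0 of 2 at an unadjusted p under 0.05). Among all 620 tested probes with 1 gene 37.3% passed. The log2 differences were -0.39 (SE 0.34) for S10 and 0.76 (SE 0.50) for S6, and without proline sample 6 they were -0.25 and 0.24. S6 was at the floor in all 6 water samples and 4 proline samples, so it was tested only through its proline values. Its difference could only be upward, and its p is no test of it. S10 was at the floor in 3 proline samples. The count of 0 of 2 therefore does not show that other plastid ribosomal protein genes were unchanged. That of S10 was 0.07 in the values as deposited. No contrast in direction is read from these 2 probes.

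S10, which in Escherichia coli lies in the head of the small subunit, stood at 0.0822, 0.107, 0.106, 0.0756, 0.0475 and 0.0790 in water samples 1 to 6. In proline it stood at 0.138, 0.0814 and 0.0865 in samples 1, 3 and 4, and at or under the floor of 0.0377 used in processing in samples 2, 5 and 6. S6, a protein of the platform of the small subunit, was at 0 in all water samples and in proline samples 2 to 5. It was at 0.0881 in proline sample 1 and 0.373 in proline sample 6. L34 was thus at the floor throughout, S6 was above it in 2 proline samples only, and S10 was above it in all 6 water samples and 3 proline samples.

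Of 26 listed factors of plastid translation and ribosome assembly, 2 had a probe of their own. AT5G46420, listed as RimM, which matures the small subunit, was above the floor in 1 proline sample only and had a log2 difference of 0.12 (SE 0.12, limma adjusted p = 0.497). With all 6 water values at the floor this difference could only be upward, and its p is no test of the gene. AT2G25870, listed for a YbeY domain, an enzyme of ribosomal RNA processing in bacteria, had 2 probes that disagreed. The first stood at 0.245 ± 0.029 in water and 0.173 ± 0.023 in proline and fell by 0.50 on the log2 scale (SE 0.12, limma adjusted p = 0.00492). The second stood at 0.380 ± 0.037 and 0.407 ± 0.027, with a log2 difference of 0.10 (SE 0.09, limma adjusted p = 0.403). With the means of neighbouring samples the first did not pass either (limma adjusted p = 0.0914), and in the values as deposited it was at 0.07, while the second rose by 0.78 (limma adjusted p = 0.000486). The direction of AT2G25870 is therefore not settled.

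**Figure D5:**
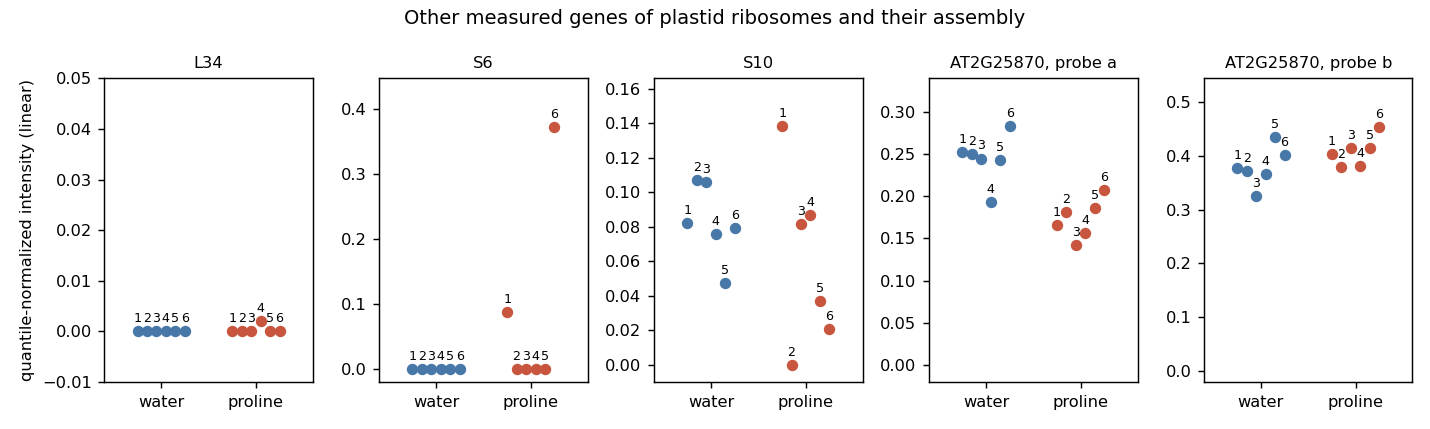
Quantile-normalized intensity (linear, each panel with its own scale) of the other measured genes of plastid ribosomal proteins and of the 2 probes of AT2G25870 in each sample; numbers are replicate numbers. L34 and S6 are at or near 0 in most samples, S10 reaches 0.138, and the first probe of AT2G25870 is lower with proline while the second is not.

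Of 20 listed aminoacyl-tRNA synthetases of the organelles, 1 had a probe of its own, the aspartyl enzyme AT4G33760, which was listed at 0 in all 12 samples. The 12 listed counterparts of L29, L17 and L5 in mitochondrial and cytosolic ribosomes had no probe of their own, nor had any of the 89 genes named as another ribosomal protein in the annotation. Whether ribosomal proteins of other compartments differed is not analysed here. The genes next to the members on their chromosomes, among them TGA1 beside AT5G65220 and SCR beside AT3G54210, had no probe of their own either. The probes with the nearest numbers below and above that of L29 were unnamed and had log2 differences of 0.07 and 0.43, neither past the test (limma adjusted p = 0.754 and 0.179). Those beside L17 were at 0.53, past the test, and 0.45 (limma adjusted p = 0.022 and 0.0738). Those beside L5 were at -0.08 and -1.04, the latter past the test (limma adjusted p = 0.764 and 0.00142).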

How the data were processed

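The authors deposited 1 table of linear array intensities between 0 and 100, with 3439 probes and 12 samples. The unit was read from the values; how the arrays were scanned and scaled is not given in the sources used here. Groups and replicate numbers came from the sample titles. Probes were named from GEO's platform annotation, which may be out of date: 692 probes had 1 gene (690 matched by gene number to TAIR10.1), 870 had several and were not named, and 1877 are unnamed here.

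Values were quantile-normalized, set to a floor of 0.0377 (the 5th percentile of positive deposited values) and put on the log2 scale. Left out were 342 probes that never rose above the floor. The groups were compared using limma 3.58.1 (R 4.3.3; lmFit, eBayes), two-sided, with no block and Benjamini-Hochberg adjustment over the 3097 tested probes at a threshold of 0.05. The fit was tested on simulated data with 200 changed probes. SEs of the members come from the SDs of both groups.

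The members and lists were chosen with earlier results of these data known. Named were the members, all other measured plastid ribosomal protein genes, up to 4 measured genes per further list with the smallest p, and the 3 nearest profiles per member. TGA1, SCR and AT4G01290 and the probes next to the members by number were named outside this rule, after values were seen.

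After subtraction of group means, water and proline samples that share a number correlated at 0.46, 0.47, 0.29, 0.30, 0.20 and 0.16 for numbers 1 to 6, each above the limit of 0.1. The highest correlation with a different number was 0.16, 0.16, 0.17, 0.17, 0.08 and 0.08, so numbers 1 to 4 passed this limit there too. The numbers were treated as pairs only in the comparison by number and in the replicate block. The main fit and the SEs of the members are unpaired. Alternatives were other scalings, no floor or a higher one, a filter on dim probes, the replicate block, means of neighbouring samples, and samples left out. No sequence is shown, as none was part of the tables used here.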

Additional observations from a re-analysis of the deposited data

Results flagged for a closer look

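Of 13 groups of 6 values checked among the named probes, 2 held 1 sample far from the rest, where chance flags about 1 in 20 groups. AT5G65220 (L29) stood at 2.459 in water sample 1, while the rest of the water samples lay between 1.90 and 2.1. AT1G64510 (S6) stood at 0.3732 in proline sample 6, while the rest lay between 0 and 0.0881. As 4 of its proline values were at 0, the chance rate does not hold for S6. Without water sample 1 or any other single sample, the log2 difference of L29 was between 2.77 and 2.96.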

How the results depend on the processing

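Besides leaving out single samples, 9 planned settings and 2 chosen after seeing the data were run. In the values as deposited L17 and L5 turned to 0.08 and 0.28; without proline samples 3 and 4 as well, they were at -0.07 and 0.13. Median centring moved L29 to 2.36. The change of the within-sample log2 ratio was 2.86 for L29 to L17 and 2.66 for L29 to L5 both as deposited and under median centring, and 2.88 for L29 to L5 under both without proline samples 3 and 4, against 3.35 and 3.24 after quantile normalization. The means of neighbouring samples lowered the called probes from 1176 to 530 and the calls among assembly factors from 1 to 0. The cause of these shifts was not tested. The share of calls that were upward was 45.0% with quantile normalization, 39.8% with median centring, 51.0% with cyclic loess and 87.0% as deposited. Leaving out 1 sample gave 1078 to 1129 called probes, 1 call among assembly factors, 0 among the other plastid ribosomal proteins, 2.77 to 2.96 for L29, -0.54 to -0.45 for L17 and -0.43 to -0.33 for L5. It gave 3.28 to 3.49, 3.18 to 3.33 and -0.15 to -0.02 for the ratios of L29 to L17, L29 to L5 and L17 to L5. The replicate block, with the number pairing the samples, gave 1282 called probes and changed no call among the other plastid ribosomal proteins and the assembly factors. With this pairing the SEs of the log2 differences of L29, L17 and L5 were 0.13, 0.08 and 0.06, against 0.13, 0.10 and 0.10 unpaired. The filter on dim probes removed S10 and S6, and 3 lists had no tested gene. L34 was at the floor in all samples, which leaves it without a value.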
